A study of Mus musculus with 6 samples.

Results

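The keratins described here are 8 genes of simple and colorectal epithelium, measured by RNA sequencing of HCT116, a human cell line grown from a colorectal carcinoma. They were taken by gene symbol from the 31456 gene rows of the count table, and all 8 symbols had 1 row. The type II genes were KRT7, KRT8, KRT80 and KRT81, and the type I genes were KRT18, KRT19, KRT20 and KRT23. The resistant group held 3 libraries of oxaliplatin-resistant HCT116 cells and the parental group 3 libraries of HCT116 cells of the parental form. Oxaliplatin, a platinum compound given for colorectal cancer, crosslinks DNA. How resistance was selected, whether the resistant cells are 1 clone, whether drug was present at harvest and whether replicates were separate cultures are not stated in the labels. The p-values therefore describe the spread among 3 libraries a group, which may be technical.

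Keratins are the intermediate filament proteins of epithelial cells. A filament is built from heterodimers of an acidic type I and a basic type II chain, so each keratin needs a partner of the other type, and an unpaired chain is generally degraded. KRT8 and KRT18 form the basic pair of simple epithelia, and KRT19 is a further type I partner of KRT8 in the gut. KRT20 marks the differentiated cells of the intestinal lining, and KRT7 belongs mainly to ductal epithelia and is low in most colon cells. KRT23 is a type I keratin described in gastrointestinal tumours. KRT80 is a type II keratin linked to epithelial differentiation, and KRT81 is a type II keratin of the hair cortex that some carcinomas also express.

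Total counts were 24039045 to 28432096 in the resistant and 20246878 to 32138423 in the parental libraries, and 3 counts, taken as the floor of a library, corresponded to 0.0933 to 0.148 CPM, the unit of counts scaled to library size. Parental replicate 2 stood apart from the other parental libraries. Its pairs had a mean chi-square per gene of 10.4 and 10.1, where sampling noise alone gives about 1, against 1.96 for parental replicates 1 and 3, and 2.58 to 4.21 between resistant libraries. Fold changes of members that move with that library are given with and without it. Of 16605 genes tested 53.8% passed a Benjamini-Hochberg threshold of 0.05 under edgeR's quasi-likelihood model, 27.3% higher and 26.5% lower in resistant cells. Of the called genes 50.8% were higher, and 65.3% were higher with library sizes alone in place of TMM normalization.

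The cell type check gave an epithelial line with few intestinal differentiation markers. EPCAM, an epithelial surface adhesion protein, averaged 196 ± 4.50 CPM in resistant and 227 ± 7.10 CPM in parental libraries (SD, n = 3 each), and CDH1, encoding E-cadherin, averaged 50.1 ± 0.775 CPM in resistant and 42.9 ± 1.23 CPM in parental libraries. Of 13 colorectal markers 9 had a row and 3 were tested, with 2 higher (CDH1 and CA2) and 1 lower (EPCAM). The summed level of the list was 289 to 297 CPM in resistant and 303 to 316 CPM in parental libraries, most of it EPCAM. The intestinal genes CDH17, VIL1, LGALS4, MUC2 and ALPI had at most 7 counts in any library, and GPA33 had at most 11. All 8 fibroblast markers had a row and 2 were tested, both higher (COL1A1 and PDGFRB), with a sum of 39.3 to 45 CPM in resistant and 22.6 to 26.1 CPM in parental libraries. Nearly all of that sum was COL1A1, and DCN, LUM and PDGFRA had at most 1 count in a library. PDGFRB had 17, 13 and 15 counts in resistant and 5, 6 and 2 in parental libraries. It passed the filter on low counts through the resistant libraries alone, so its direction was favoured by the filter. Of 7 leukocyte markers 1 was tested, CD68, a lysosomal protein gene that was higher, and PTPRC had at most 2 counts in a library. The leukocyte sum was 16 to 18.6 CPM in resistant and 12.6 to 13.3 CPM in parental libraries. Among the endothelial markers 5 of 6 had a row, the only one tested (VWF) did not pass, and the sum was 1.21 to 1.74 CPM in resistant and 1.12 to 1.43 CPM in parental libraries. Calls among these few tested markers are to be read beside the 53.8% of all tested genes called, 27.3% higher and 26.5% lower. In a bulk sample, fewer cells expressing a gene and less of its RNA per cell cannot be told apart.

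The largest fold changes were among the minor keratins, and the abundant ones differed by small steps. Of the 8 members, all of which were tested, 4 were higher (KRT80, KRT81, KRT20 and KRT19), 3 were lower (KRT23, KRT18 and KRT8) and 1, KRT7, did not pass the threshold. These 7 calls of 8 compare with 53.8% of all tested genes. The median log2 fold change of the members was 0.32, against 0.02 over all tested genes. In 7 of the 8 the resistant and parental libraries did not overlap, as for 61.2% of all tested genes, and KRT19 was the exception. KRT20 is in each of these counts and in the median, although it passed the filter on low counts through the resistant libraries alone. Its direction was thus favoured by the filter and adds no support to these counts. The count of called members depended on single libraries. It was 7 without parental replicate 2, 5 without parental replicate 1, parental replicate 3 or resistant replicate 2, 4 without resistant replicate 3 and 3 without resistant replicate 1. KRT80 and KRT23 were called under all 16 alternatives run, and KRT18 under 15 of them.

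**Figure D1:**
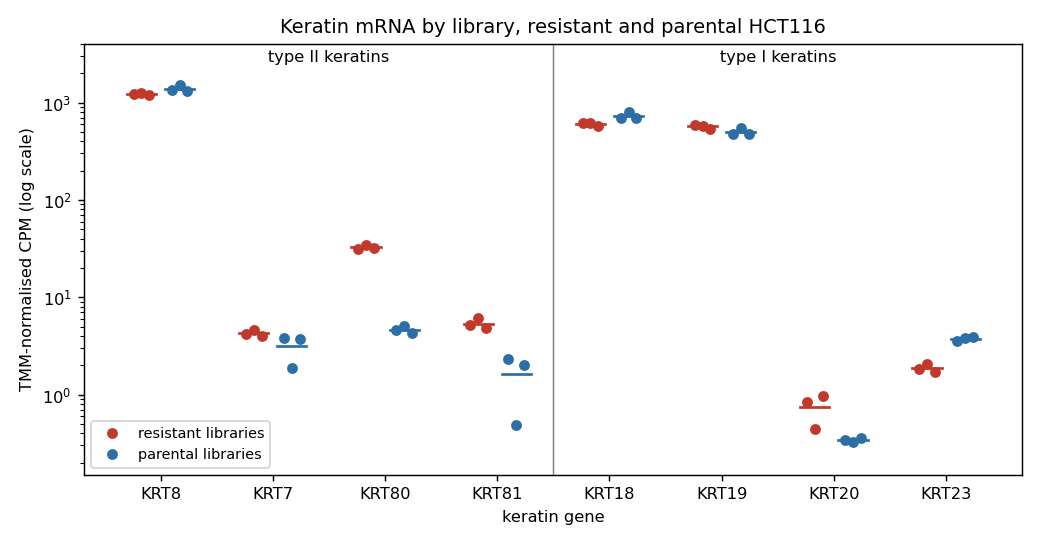
TMM-normalised CPM of each keratin gene (horizontal axis; type II left, type I right) on a log vertical axis, with 1 point per library and a line at the mean of each group of 3. KRT80 lies near 32.6 CPM in resistant and 4.63 CPM in parental libraries, whereas KRT8, KRT18 and KRT19 hold similar levels in both.

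KRT8 (ENSG00000170421.12), the central type II chain, had 1226, 1265 and 1204 CPM in resistant replicates 1 to 3, against 1337, 1522 and 1301 CPM in parental replicates 1 to 3. Each resistant library lay below each parental one, and parental replicate 2 was the highest. The resistant level was 1.13-fold lower (log2 fold change -0.17 ± 0.06 SE, edgeR adjusted p = 0.028). Without parental replicate 2 the log2 fold change was -0.098 with an edgeR adjusted p of 0.024, and with library sizes alone it was -0.076 with an edgeR adjusted p of 0.26, within a range of 0.0022 to 0.43 over the alternatives. Leaving out resistant replicate 1 or resistant replicate 3 also ended the call, at edgeR adjusted p-values of 0.088 and 0.10.

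KRT18 (ENSG00000111057.11), its usual type I partner, had 612, 624 and 579 CPM in resistant libraries, against 699, 809 and 701 CPM in parental libraries. Here too the groups did not overlap. KRT18 was 1.22-fold lower in resistant cells (log2 fold change -0.28 ± 0.06 SE, edgeR adjusted p = 0.0019). Without parental replicate 2 the log2 fold change was -0.21 with an edgeR adjusted p of 1.4e-04. Both partners of the basic pair thus fell by small steps, with library sizes alone leaving KRT18 called and KRT8 not.

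KRT19 (ENSG00000171345.13), the type I keratin that lacks most of the tail domain, moved the other way. It had 589, 581 and 537 CPM in resistant libraries, against 472, 551 and 472 CPM in parental libraries. The groups overlapped, because parental replicate 2 lay above resistant replicate 3. The level was 1.14-fold higher in resistant cells (log2 fold change 0.19 ± 0.06 SE, edgeR adjusted p = 0.028). Leaving out parental replicate 1, parental replicate 3, resistant replicate 1 or resistant replicate 2 ended this call, at edgeR adjusted p-values of 0.13, 0.13, 0.11 and 0.084, within a range of 3.1e-05 to 0.13 over the alternatives. Without parental replicate 2 the log2 fold change was 0.27.

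KRT8, KRT18 and KRT19 have many processed pseudogenes, so some of their reads could have been assigned elsewhere. The table held 30 pseudogene rows for KRT8, 31 for KRT18 and 3 for KRT19. Their summed counts came to 0.289% to 0.429% of KRT8, 0.167% to 0.307% of KRT18 and at most 0.0059% of KRT19 in a library. Adding them to the parent gene left each of the 3 calls in place.

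KRT80 (ENSG00000167767.14) showed the largest change of the members. It had 31.0, 34.5 and 32.4 CPM in resistant libraries, against 4.58, 5.04 and 4.28 CPM in parental libraries. Behind them were 772, 1009 and 841 counts in the resistant group and 122, 155 and 84 in the parental group. All resistant libraries stood far above the parental range, and the spread within a group was small beside the gap. The rise was 6.99-fold (log2 fold change 2.80 ± 0.08 SE, 95% interval 2.63 to 2.98, edgeR adjusted p = 1.4e-10). By the size of its fitted rise KRT80 stood 125th of the 16605 tested genes.

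KRT81 (ENSG00000205426.10) had 5.22, 6.09 and 4.78 CPM in resistant libraries, against 2.33, 0.488 and 2.04 CPM in parental libraries. There were 130, 178 and 124 counts behind the resistant levels and 62, 15 and 40 behind the parental ones. The groups did not overlap, and parental replicate 2 was well below the other parental libraries. The fitted rise was 3.43-fold (log2 fold change 1.78 ± 0.47 SE, edgeR adjusted p = 0.022). Without parental replicate 2 the log2 fold change was 1.29 with an edgeR adjusted p of 6.9e-06. Without parental replicate 3 or any 1 resistant library the edgeR adjusted p lay between 0.055 and 0.065, within a range of 6.9e-06 to 0.13 over the alternatives. KRT81 is a near-identical copy of KRT83 and KRT86, so the division of reads among them is uncertain. KRT86 had 10, 16 and 8 counts in resistant and 7, 6 and 4 in parental libraries, and KRT83 had 5, 4 and 4 in resistant and 0, 0 and 1 in parental libraries. Summed over these 3 genes the log2 fold change was 1.72.

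KRT7 (ENSG00000135480.16) had 4.22, 4.58 and 4.01 CPM in resistant libraries, against 3.83, 1.89 and 3.77 CPM in parental libraries. The lowest resistant value lay just above the highest parental one, and parental replicate 2 was again the lowest. The log2 fold change of 0.46 ± 0.23 (SE) did not pass the threshold (95% interval -0.06 to 0.98, edgeR adjusted p = 0.12). Without parental replicate 2 it was 0.17, with an edgeR adjusted p of 0.34. A wider gap appeared in the deposited normalised expression, treated as FPKM, which divides fragments by library size and gene length. It was 7.25, 8.08 and 6.25 FPKM in resistant libraries and 3.91, 2.14 and 4.37 FPKM in parental libraries. On log2(FPKM + 0.1) the difference was 1.08 with a limma adjusted p of 0.011, within a range of 0.0096 to 0.34 over the alternatives. The KRT7 locus also carries the antisense gene KRT7-AS, with 6, 4 and 4 counts in resistant and 2, 3 and 1 in parental libraries. The strand setting of the counting is not given in the sources used here, so reads of the pair cannot be told apart.

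KRT23 (ENSG00000108244.16) was the minor member that fell. It had 1.85, 2.09 and 1.70 CPM in resistant libraries, against 3.57, 3.77 and 3.92 CPM in parental libraries. The libraries held 46, 61 and 44 counts in the resistant group and 95, 116 and 77 in the parental group. All resistant libraries were low and all parental ones high. The level was 1.99-fold lower in resistant cells (log2 fold change -0.99 ± 0.15 SE, edgeR adjusted p = 1.3e-04).

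KRT20 (ENSG00000171431.3) was barely detected. The resistant libraries had 21, 13 and 25 counts (0.844, 0.445 and 0.964 CPM), and the parental libraries had 9, 10 and 7 counts (0.338, 0.325 and 0.356 CPM). KRT20 passed the filter on low counts through the resistant libraries alone, since 3 resistant and 0 parental libraries reached its floor. The fitted rise was 2.18-fold (log2 fold change 1.12 ± 0.35 SE, edgeR adjusted p = 0.018). In the deposited normalised expression the groups overlapped, at 0.62, 0.32 and 0.70 FPKM in resistant libraries and 0.23, 0.22 and 1.56 FPKM in parental libraries. There parental replicate 3, with 7 counts, was listed highest. On log2(FPKM + 1) the difference was -0.03 with a limma adjusted p of 0.95, within a range of 0.0047 to 0.97 over the alternatives. DESeq2 gave an adjusted p of 0.083. Its edgeR adjusted p lay between 0.050 and 0.090 when parental replicate 1, or either of resistant replicates 1 and 3, was left out.

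**Figure D2:**
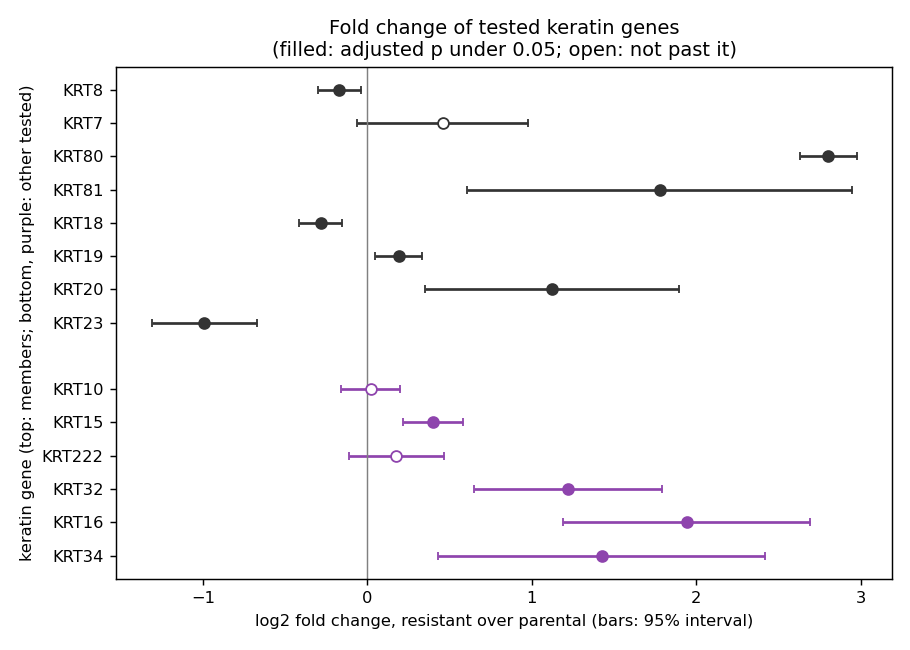
Fitted log2 fold change, resistant over parental, with its 95% interval (horizontal axis) for the 8 members and, in purple, the 6 other keratin genes tested; filled points passed an adjusted p of 0.05. KRT80 has the largest value at 2.80 and KRT23 the lowest at -0.99. KRT20, KRT16, KRT32 and KRT34 passed the filter on low counts only with the resistant libraries, where they are higher.

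Levels of different genes were compared on the normalised expression, which is scaled to gene length. KRT8 averaged 871 ± 18.8 FPKM in resistant and 930 ± 74.3 FPKM in parental libraries (SD, n = 3 each). It ranked 123rd by mean FPKM among the 16605 tested genes, with KRT18 161st and KRT19 181st. In resistant libraries KRT18 averaged 573 ± 21.4 FPKM and KRT19 563 ± 29.0 FPKM, and their values overlapped. In parental libraries KRT18 averaged 664 ± 53.9 FPKM and KRT19 468 ± 41.6 FPKM, with no overlap. The minor members were at 9.55 ± 0.491 FPKM or less. In resistant libraries their order was KRT80 (9.55 ± 0.491 FPKM), KRT7 (7.19 ± 0.916 FPKM), KRT81 (3.45 ± 0.405 FPKM), KRT23 (1.48 ± 0.255 FPKM) and KRT20 (0.547 ± 0.200 FPKM), with no overlap between neighbours. In parental libraries KRT7 (3.47 ± 1.18 FPKM) and KRT23 (2.72 ± 0.211 FPKM) overlapped, and KRT80 (1.26 ± 0.0950 FPKM) overlapped KRT81 (0.997 ± 0.617 FPKM). Parental KRT20, at 0.23, 0.22 and 1.56 FPKM (0.670 ± 0.771 FPKM), overlapped both KRT80 and KRT81. KRT80 therefore stood above KRT7 and KRT23 in each resistant library and below both in each parental library.

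Set side by side, the summed type II and type I pools overlapped between the groups while their composition differed. The type II members summed to 888, 913 and 873 FPKM in resistant libraries, against 904, 1019 and 885 FPKM in parental libraries. For the type I members the sums were 1171, 1161 and 1081 FPKM in resistant libraries, against 1076, 1245 and 1085 FPKM in parental libraries. The exact permutation p-values were 0.50 for type II and 0.90 for type I (two-sided, n = 3 each), with differences of -44.5 FPKM and 2.33 FPKM in the means. Type II mRNA per type I mRNA was 0.758, 0.786 and 0.807 in resistant and 0.840, 0.818 and 0.815 in parental libraries on this scale, with every resistant library below every parental one. The members together took 0.253% ± 0.00796 of all counts in resistant and 0.255% ± 0.0194 in parental libraries (SD, n = 3 each; exact permutation p = 0.90, two-sided). Parental replicate 2 had the highest sum of each type and, at 0.277%, the highest share. With 1 library left out at a time, the share difference ran from -0.00847 to 0.00927 percentage points, so its sign depended on single libraries.

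Within the type I pool KRT19 made up 50.1%, 49.2% and 49.1% of the FPKM in resistant libraries, against 41.2%, 41.4% and 41.0% in parental libraries. The share was thus near equal to that of KRT18 in resistant cells and smaller in parental cells. Within the type II pool KRT8 made up 97.6% to 97.8% in resistant and 99.2% to 99.6% in parental libraries. KRT80 took 1.03% to 1.10% of that pool in resistant and 0.132% to 0.139% in parental libraries. Even after its rise KRT80 was therefore a small part of type II keratin mRNA. These shares within a pool were chosen after the member values were seen and were not tested.

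**Figure D3:**
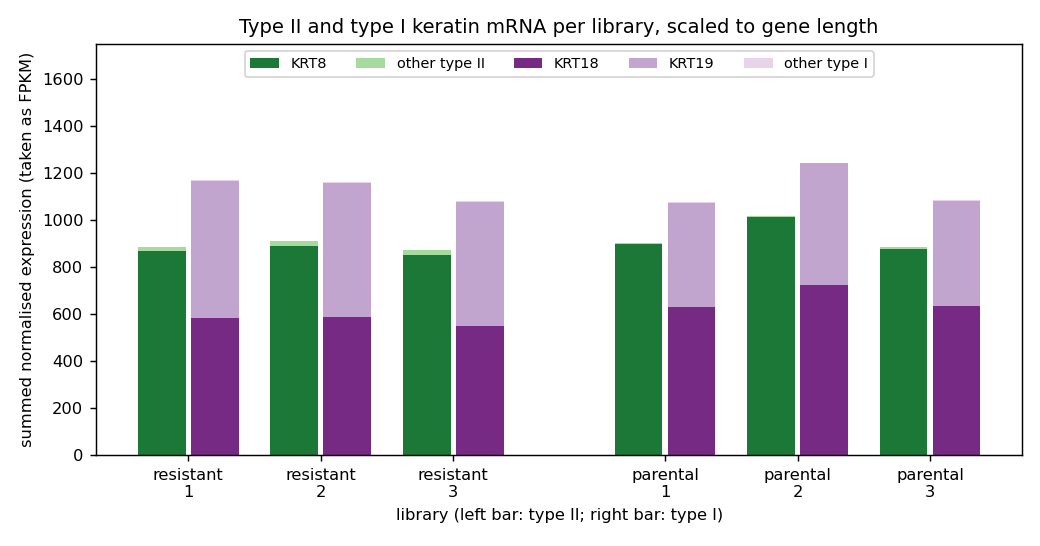
Summed normalised expression, taken as FPKM (vertical axis, from 0), of type II members (left bar, greens) and type I members (right bar, purples) in each library, resistant left and parental right. The pools have similar heights, while KRT19 fills 49.1% to 50.1% of the type I bar in resistant and 41.0% to 41.4% in parental libraries.

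Ratios of partners within a library do not depend on library normalization, and 5 were tested. With 3 against 3 libraries the smallest two-sided p of an exact permutation test is 0.10, so no ratio could pass the threshold. The KRT8 to KRT18 count ratio was 2.003, 2.028 and 2.079 in resistant libraries, against 1.914, 1.880 and 1.854 in parental libraries. Resistant libraries were all higher, and the mean log2 ratio differed by 0.11 (exact permutation p = 0.10, adjusted over the 5 ratios 0.17). KRT18 was thus slightly lower relative to KRT8 in each resistant library, a difference that this test could not call. The KRT8 to KRT19 ratio was 2.08, 2.18 and 2.24 in resistant libraries, against 2.83, 2.76 and 2.75 in parental libraries, a log2 difference of -0.36 with no overlap (exact permutation p = 0.10, adjusted 0.17). On FPKM the KRT8 to KRT18 and KRT8 to KRT19 differences were 0.12 and -0.36.

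The KRT8 to KRT20 count ratio was 1453, 2846 and 1249 in resistant libraries, against 3953, 4680 and 3650 in parental libraries (log2 difference -1.24, exact permutation p = 0.10, adjusted 0.17). On FPKM that difference was -0.36 with overlapping groups. For KRT7 to KRT19 the ratio was 0.00716, 0.00789 and 0.00747 in resistant libraries, against 0.00812, 0.00342 and 0.00798 in parental libraries. These groups overlapped (log2 difference 0.31, exact permutation p = 1), and the sign changed without parental replicate 2, at -0.10. On FPKM the KRT7 to KRT19 difference was 0.84 with no overlap. Summed type II over summed type I counts was 1.05, 1.09 and 1.11 in resistant libraries, against 1.15, 1.12 and 1.11 in parental libraries (log2 difference -0.06, exact permutation p = 0.20, adjusted 0.25). Without resistant replicate 1 that difference was -0.04.

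**Figure D4:**
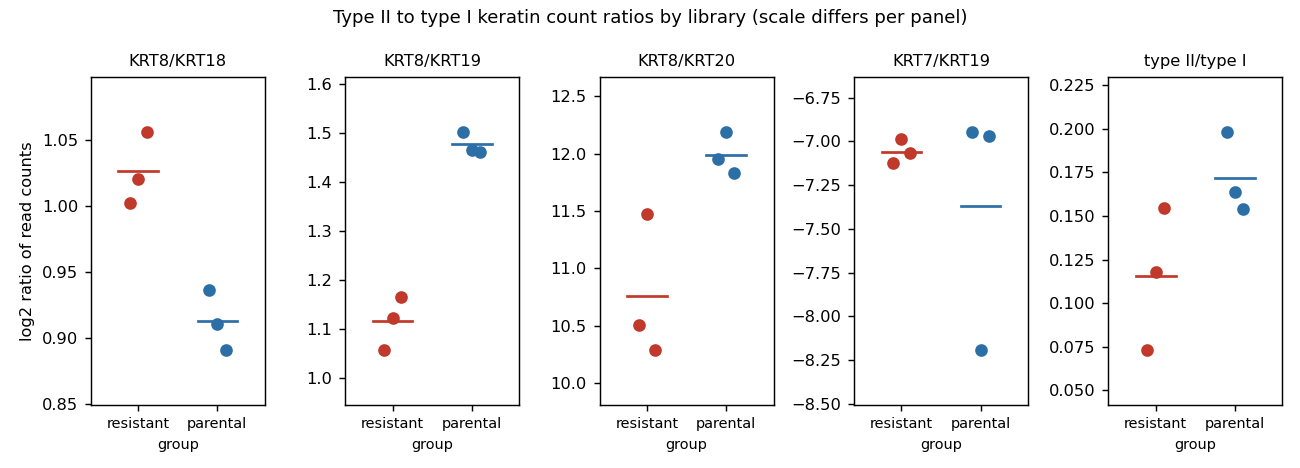
Log2 ratio of read counts (vertical axis, own scale per panel) for 4 pairs of a type II and a type I keratin and for the summed types, with 1 point per library and a line at the group mean. Resistant libraries lie above parental ones for KRT8/KRT18, below them for KRT8/KRT19 and KRT8/KRT20, and overlap them in the other panels.

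The rest of the keratin family was mostly silent in both forms of the line. The table held 33 other keratin genes, and 6 of them had enough counts for the test. Of these KRT15, KRT16, KRT32 and KRT34 were higher in resistant cells, and KRT10 and KRT222 did not pass, beside 27.3% higher and 26.5% lower of all tested genes. The filter on low counts bears on this split. KRT16 and KRT34 reached its floor in 0 parental libraries and KRT32 in 2, so these 3 genes entered through the resistant libraries. KRT17, with fewer counts in each resistant than in each parental library, reached the floor in 0 resistant and 2 parental libraries and was not tested. The direction of the calls among the other keratins therefore shows nothing about the family. KRT15, a type I keratin of basal and progenitor cells of stratified epithelium, averaged 20.4 ± 0.579 CPM in resistant and 15.4 ± 1.93 CPM in parental libraries (SD, n = 3 each; log2 fold change 0.40, edgeR adjusted p = 0.0018). Its log2 fold change was 0.52 without parental replicate 2. KRT16, a type I keratin induced in wounded epidermis, had 29, 20 and 27 counts in resistant libraries, against 8, 8 and 3 in parental libraries (log2 fold change 1.94, edgeR adjusted p = 5.5e-04).

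The type I hair keratin KRT32 had 29, 31 and 27 counts in resistant and 10, 18 and 8 in parental libraries (log2 fold change 1.22, edgeR adjusted p = 0.0020). Without parental replicate 2 its log2 fold change was 1.47. KRT34, another type I hair keratin, had 12, 28 and 11 counts in resistant and 9, 7 and 2 in parental libraries (log2 fold change 1.42, edgeR adjusted p = 0.020). The KRT34 call was lost without resistant replicate 2, where the log2 fold change was 0.95 (edgeR adjusted p = 0.13, range 0.0041 to 0.16 over the alternatives), and without parental replicate 3 (edgeR adjusted p = 0.061). KRT16, KRT32 and KRT34 were named after their values were seen. KRT10, the type I keratin of suprabasal epidermis, averaged 25.4 ± 0.403 CPM in resistant and 25.1 ± 3.10 CPM in parental libraries and did not pass (log2 fold change 0.02 ± 0.08 SE, edgeR adjusted p = 0.85). KRT222, a keratin-like gene, had a log2 fold change of 0.18 ± 0.13 SE (edgeR adjusted p = 0.29). Of the untested genes, KRT17, a type I keratin of wounded and tumour epithelium, had 3, 2 and 4 counts in resistant and 10, 19 and 8 in parental libraries. The basal keratins KRT5 and KRT14 had at most 4 counts in any library.

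The share of genes called in the lists around the filament network is to be read beside the 53.8% of all tested genes called, 27.3% higher and 26.5% lower. Of 16 other intermediate filament genes 15 had a row and 10 were tested, with 2 higher, 4 lower, 4 not past the threshold and a median log2 fold change of -0.18. VIM, the gene of the mesenchymal filament protein vimentin, averaged 614 ± 0.534 FPKM in resistant libraries, a per-length level beside the 573 FPKM of KRT18 and 563 FPKM of KRT19 there. In parental libraries VIM averaged 12.2 ± 1.39 FPKM, below the 664 FPKM of KRT18 and the 468 FPKM of KRT19. NES, which encodes nestin, rose with a log2 fold change of 1.07 (edgeR adjusted p = 9.3e-08). The nuclear lamin genes LMNB1 and LMNB2 fell, with log2 fold changes of -0.59 and -0.45 (edgeR adjusted p-values 4.6e-07 and 2.9e-06). The lamin gene LMNA, named outside the rule, fell as well (log2 fold change -0.59, edgeR adjusted p = 2.9e-06).

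In the list of keratin anchoring and binding proteins 12 of 13 genes were tested, 4 were higher, 7 lower and 1 not past the threshold, with a median log2 fold change of -0.24. Genome-wide, 53.8% of tested genes were called, 27.3% higher and 26.5% lower, and the median was 0.02. The 4 genes of this list with the smallest adjusted p were PKP3, JUP, DSP and EPPK1, all lower, and the next by adjusted p, PNN (2.6e-05 in edgeR), was higher. PKP3, a desmosomal plakophilin, averaged 32.5 ± 1.11 CPM in resistant and 63.3 ± 2.38 CPM in parental libraries (log2 fold change -0.96, edgeR adjusted p = 4.1e-08). JUP, encoding plakoglobin, had a log2 fold change of -0.59 (edgeR adjusted p = 1.6e-06). DSP, encoding desmoplakin, which ties keratin filaments to desmosomes, had one of -0.42 (edgeR adjusted p = 1.3e-05). EPPK1, encoding the keratin-binding cytolinker epiplakin, had one of -0.57 (edgeR adjusted p = 2.4e-05). The 4 genes that rose were FBF1, PKP2, PNN and TCHP, by 0.16 to 0.51 on the log2 scale.

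Of 15 transcription factors of intestinal and simple epithelium 11 were tested, with 5 higher, 3 lower, 3 not past the threshold and a median log2 fold change of -0.01, beside 27.3% higher and 26.5% lower of all tested genes. EHF, an epithelial ETS factor, averaged 54.8 ± 0.667 CPM in resistant and 1.33 ± 0.380 CPM in parental libraries (SD, n = 3 each; edgeR adjusted p = 1.0e-11). HNF4A, a nuclear receptor of gut and liver epithelium, averaged 0.574 ± 0.0972 CPM in resistant and 5.20 ± 0.382 CPM in parental libraries (SD, n = 3 each; log2 fold change -3.17, edgeR adjusted p = 3.7e-08). ELF3, another epithelial ETS factor, was lower (log2 fold change -0.57, edgeR adjusted p = 1.6e-05), and GRHL1, a grainyhead-like factor, was higher (log2 fold change 0.56, edgeR adjusted p = 2.8e-05). CDX2, the intestinal homeobox factor, had a log2 fold change of -0.08 (edgeR adjusted p = 0.54) and is named outside the rule, after its value was seen.

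**Figure D5:**
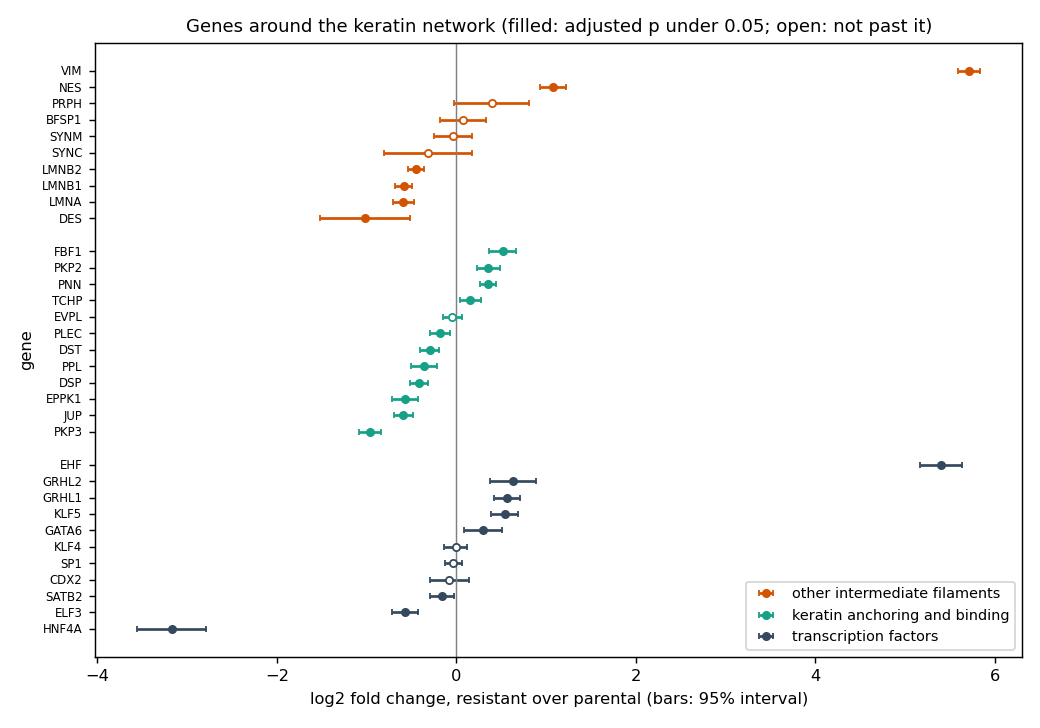
Fitted log2 fold change, resistant over parental, with its 95% interval (horizontal axis) for the tested genes of 3 lists, sorted within each list; filled points passed an adjusted p of 0.05. Each list has genes on both sides of 0, with VIM at 5.71 and EHF at 5.40 furthest right and HNF4A at -3.17 furthest left.

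KRT80, the called member with the largest change, was set against 11605 genes with a mean of at least 5 CPM. Likeness was the root mean square difference of centred log2 CPM over the 6 libraries. The closest was CCN2, encoding a secreted matricellular protein, at 0.0846, with 50.6, 48.2 and 49.4 CPM in resistant and 7.74, 7.84 and 6.92 CPM in parental libraries. ANGPTL4, encoding a secreted inhibitor of lipoprotein lipase, and SRPX2, a secreted sushi-repeat protein gene, followed at 0.105 each. The measure over 6 libraries is mostly the step between 2 groups, which 53.8% of tested genes showed in some size.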

How the data were processed

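The authors deposited unnormalised whole-number read counts for each gene in 1 table of 6 libraries. Per the labels' protocols, the libraries were prepared from total RNA using the SMARTER mRNA-Seq kit. Columns were assigned through the sample descriptions and groups and replicate numbers through the titles. A second table deposited by the authors holds normalised values, taken as FPKM scaled to gene length and library size because of how they relate to the counts; its header names no unit. It was not computed from the counts alone, so it served for per-length levels and alternatives. The labels name mouse and the submitters' processing notes name GRCm38 and mm10, but the rows carry human Ensembl identifiers. No mouse reference entered the work, and neither sequences nor coordinates are printed. Aligner, counter and annotation: not given in the sources used here.

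Counts were fitted over the whole table with edgeR 4.0.16 in R 4.3.3 (TMM, filterByExpr with a minimum count of 10, robust quasi-likelihood test, two-sided, Benjamini-Hochberg adjustment over all tested genes, threshold 0.05). CPM are TMM-normalised, and the SE is the log2 fold change divided by the root of F. Partner ratios, the summed pools and the members' share of all counts had exact permutation tests over libraries. Alternatives used RLE factors, library sizes alone, other filters, DESeq2 1.42.0, limma 3.58.1 on log2(FPKM + 0.1 or 1), pseudogene sums, a replicate block and single libraries left out. The edgeR script was tested on simulated data with the same dispersion for every gene and no outlying library. That test does not cover a library that stands apart, as parental replicate 2 does.

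Members and lists were chosen with earlier results of these data known. Named were all members, other keratins past the threshold at a mean of 1 CPM or more, the 4 smallest adjusted p of each list, the 3 highest of each marker list, and the 3 genes most like the called member with the largest change. Floors and intervals cover counting error or the spread between libraries only.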

Additional observations from a re-analysis of the deposited data

How the results depend on the processing

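KRT80 and KRT23 kept their direction and call under all 16 alternatives. With library sizes alone KRT8 had a log2 fold change of -0.0763. On FPKM it was -0.0915 (pseudocount 0.1) and -0.0914 (pseudocount 1), not past the threshold, and KRT7 passed with 1.08 and 0.91. KRT7 also passed with no filter on counts (0.44). KRT20 was 0.16 and then -0.0265 on FPKM (pseudocount 0.1 and 1) and lost its call in DESeq2 (1.13). On FPKM with no filter KRT18 (-0.21) and KRT19 (0.27) lost their calls, leaving 4 members called, 1 of them lower. That setting called 7 anchoring genes and 5 transcription factors. With no filter on counts KRT81 was not called (1.76) and 7 other keratins were, and with at least 1 CPM in 3 libraries 2 were. That CPM filter and each FPKM setting left 1 fibroblast marker called, and each FPKM setting left 1 colorectal marker. On FPKM the KRT8 to KRT20 difference was -0.36. VWF changed sign on FPKM (-0.0628 and -0.0159) and passed in no setting. The causes were not tested.

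Leaving out 1 library at a time gave log2 fold changes of -0.22 to -0.10 for KRT8, 0.14 to 0.27 for KRT19, 0.90 to 1.41 for KRT20 and 1.29 to 2.21 for KRT81. It gave 3 to 7 members called, 1 to 4 of them higher and 2 to 3 lower. Same-numbered deviations correlated by 0.0883, 0.212 and 0.0493, all positive. Libraries with different numbers were not compared, so whether replicate numbers pair the libraries was not settled. With a replicate block 9973 genes were called, against 8933, and KRT81 (1.85) was not (edgeR adjusted p = 0.13, range 6.9e-06 to 0.13). The counts behind KRT20 (7 to 25 a library) and KRT81 (15 to 178) limit their precision.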
